A study of Mus musculus with 2 samples.

Results

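The comparison described here set 1 array of hypothalamic RNA from mice given bezafibrate against 1 array from control mice, both taken at ZT10, 10 h after lights on and late in the rest phase of a nocturnal animal. Its members were the genes measured well above the scanner background on both arrays with a processed signal of 100 units or more on at least 1 of them. They numbered 13249 of the 21441 genes with a measured probe. Of the remaining genes, 5323 were too dim on at least 1 of the ZT10 arrays and 2869 were above background but under 100 units on both. Just inside the minimum, at 100 units, lay Agpat2 on the bezafibrate array and Ano1 and Castor1 on the control array. Just outside it lay Apol9b, at 99.9 units on the control array, and Ccdc15 and Wrn, each at 99.8 units on the bezafibrate array.

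The study compared hypothalamic gene expression between mice on feed with bezafibrate and mice without it, at ZT10 and at ZT22, 22 h after lights on. The labels describe animals aged 8 weeks at the start, kept 2 weeks on standard feed, then 2 weeks on the drug at 0.5% of the feed, and then 5 weeks on standard feed. The labels do not settle at which stage the brains were taken, nor what the controls ate, and strain and sex are not given in the sources used here. Each array carried equal amounts of total RNA of 4 mice, so each of the 4 groups (control and bezafibrate at ZT10, control and bezafibrate at ZT22) was 1 pool without replicates. The tissue was a square block cut around the hypothalamus, and could hold parts of neighbouring tissue. It carried hypothalamic transcripts at high signal on all 4 arrays: Hcrt, the orexin precursor of the lateral hypothalamus, lay at 63100 to 73600 units, and Pmch, the melanin-concentrating hormone precursor, at 56000 to 60300 units.

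Bezafibrate belongs to the fibrates, lipid-lowering drugs that activate the peroxisome proliferator-activated receptors (PPARs). These nuclear receptors pair with retinoid X receptors on DNA and switch on genes of fatty acid oxidation, above all in liver. In the arcuate nucleus of the hypothalamus, neurons that make neuropeptide Y and agouti-related peptide drive feeding, and neurons that make pro-opiomelanocortin and CART peptide restrain it. Both sets of neurons follow nutritional state and hormones such as leptin and insulin.

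Sequences just upstream of the start site are shown for the arcuate peptide genes Npy, Pomc and Cartpt and for a further gene that held a PPAR-type element. They come from RefSeq on build GRCm38.p6 and end at the base before the start. They are read on the gene's own strand, in lower case, with a motif match in capitals. Agrp had no entry among the sequences used. Npy lies on the plus strand (chr6:49822460-49822709), as do Pomc (chr12:3954695-3954944) and Chmp4b (chr2:154656776-154657025), and Cartpt lies on the minus strand (chr13:99900684-99900933).
Npy: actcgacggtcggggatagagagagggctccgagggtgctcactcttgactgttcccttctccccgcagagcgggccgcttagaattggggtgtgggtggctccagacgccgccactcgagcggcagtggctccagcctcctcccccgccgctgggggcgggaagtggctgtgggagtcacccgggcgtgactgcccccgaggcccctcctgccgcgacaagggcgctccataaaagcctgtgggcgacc
Pomc: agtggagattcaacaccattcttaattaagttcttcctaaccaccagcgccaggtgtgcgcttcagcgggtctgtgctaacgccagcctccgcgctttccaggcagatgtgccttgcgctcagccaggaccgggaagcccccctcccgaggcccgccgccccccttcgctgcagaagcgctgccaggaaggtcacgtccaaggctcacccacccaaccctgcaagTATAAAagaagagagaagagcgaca
Cartpt: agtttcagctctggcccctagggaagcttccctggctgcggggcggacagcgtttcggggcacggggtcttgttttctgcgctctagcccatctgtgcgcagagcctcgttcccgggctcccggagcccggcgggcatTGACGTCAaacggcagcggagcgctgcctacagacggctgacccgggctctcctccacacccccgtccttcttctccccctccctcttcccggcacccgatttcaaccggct
Chmp4b: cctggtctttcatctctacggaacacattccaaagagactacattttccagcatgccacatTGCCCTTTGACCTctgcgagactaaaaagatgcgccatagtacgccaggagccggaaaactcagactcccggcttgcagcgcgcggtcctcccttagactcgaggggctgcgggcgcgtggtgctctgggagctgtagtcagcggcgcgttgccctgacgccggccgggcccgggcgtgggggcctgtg
The capitals in Pomc mark a TATA box (TATAAA) whose first base is at position -25 from the start. Those in Cartpt mark a cAMP response element (TGACGTCA) at -112. Those in Chmp4b mark, on the opposite strand, a relaxed form of the element bound by PPAR and retinoid X receptor pairs, a direct repeat of AGGNCA with 1 base between the copies, with its first base at -189. In the same 250 bases of 27025 genes, searched on both strands, TATAAA was found in 14.3%, TGACGTCA in 1.77% and the relaxed repeat in 0.4%. The strict repeat, AGGTCA in both copies, was found in 0.0407% of these genes, in 0 of the 95 genes past 1.5-fold that had an entry and in 0 of 45 genes of the fatty acid oxidation, ketone body and PPAR target lists. The relaxed repeat was found in Chmp4b alone among the 95, and in Fabp1 alone among the 45. Among the 10188 members with an entry, TATAAA was found in 8.42%, TGACGTCA in 3.1% and the relaxed repeat in 0.285%. A match of letters describes this window and says nothing of binding.

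The bezafibrate and control pools had nearly the same profile at ZT10. The median log2 ratio of bezafibrate over control was 0.01 over the members, with quartiles of -0.05 and 0.07, and 96.3% of the members lay within 1.25-fold. Ratios above 0 made up 55.4% of the members and ratios below 0 made up 44.6%. A ratio of 1.5-fold or more was reached by 60 genes in the higher direction, 0.453% of the 13249, and by 71 genes in the lower direction, 0.536%. At 2-fold the counts were 17 higher (0.128%) and 26 lower (0.196%). Ratios were scaled by each array's 75th percentile. Scaling to the spike-in transcripts lowered the median of all genes to -0.05 and gave 48 higher and 93 lower, so that 34% instead of 45.8% of the genes past 1.5-fold were higher.

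**Figure D1:**
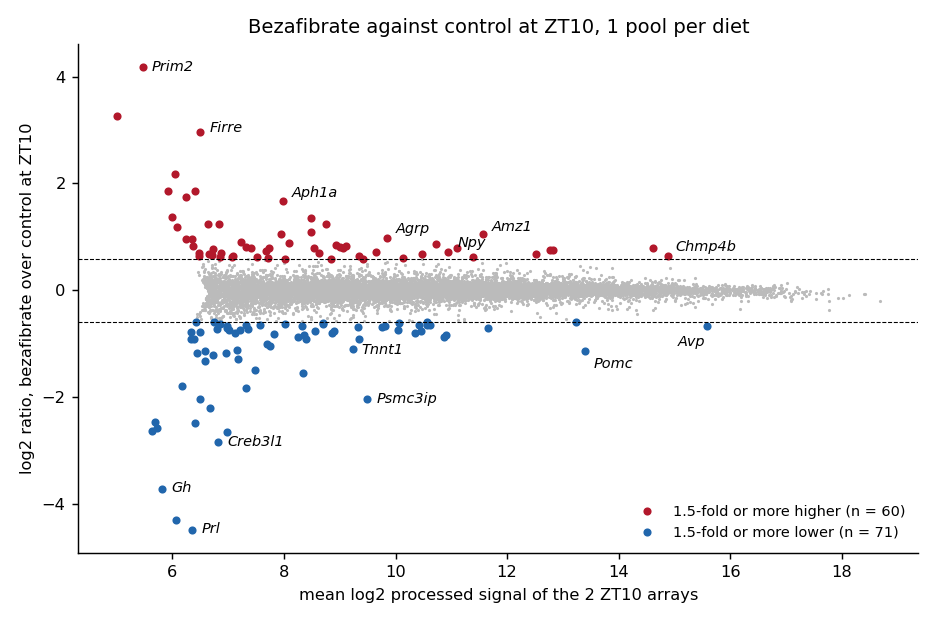
Log2 ratio of bezafibrate over control at ZT10 (vertical axis) against the mean log2 processed signal of both ZT10 arrays (horizontal axis), 1 point per gene, with dashed lines at 1.5-fold. The 60 red and 71 blue points past 1.5-fold are mostly dim genes at the left; Pomc and Avp lie among the few bright genes past the lines.

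With 1 array per group there was no measure of how mice or pools vary, and no p-value is given. Where a log2 ratio is printed with ±, the error was propagated from the signal errors of Feature Extraction (median 0.20 over the members). That error leaves out variation among mice and pools. Spots of the same probe, printed 10 times each for 158 probes, differed with a median SD of 0.05 in log2 ratio. Different probes of a gene differed with a median SD of 0.06 over 4736 genes. Of the 8011 members at 1000 units or more on an array, 0.175% were 1.5-fold higher and 0.212% lower, against 0.878% and 1.03% of the 5238 dimmer members. From 68.7% to 74.6% of the features were well above background on the 4 arrays, and no spot was saturated. All 4 arrays shared 1 slide, where the ZT10 pools sat at position 2 (control) and position 4 (bezafibrate), and the ZT22 pools at 1 and 3. Diet and side of the slide therefore cannot be told apart. Signals below are in processed units before scaling, and are given in the order control and bezafibrate at ZT10, then control and bezafibrate at ZT22.

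Feeding peptides of the arcuate nucleus were among the brighter genes past 1.5-fold, with the appetite-promoting pair higher and Pomc lower. Npy (NM_023456) gave signals of 1510, 2580, 1250 and 2640 units, and Agrp (NM_007427), the melanocortin receptor antagonist made by the same neurons, gave 639, 1310, 477 and 1350 units. Both bezafibrate arrays were above both control arrays for each gene. The log2 ratio at ZT10 was 0.72 ± 0.20 for Npy, or 1.64-fold, and 0.98 ± 0.20 for Agrp, or 1.97-fold. At ZT22 the log2 ratios were 1.26 and 1.68. Among the 7 appetite-promoting peptides listed, 5 were members, and Npy and Agrp were the 2 past 1.5-fold. The other 3, Hcrt, Pmch and Gal, the galanin gene, had log2 ratios from -0.09 to -0.01. Of the 2 peptides that were not members, Qrfp gave 105, 7.33, 22.1 and 7.8 units, above background on the control arrays alone. Galp was not above background on any array.

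Pomc (NM_008895), the precursor of the appetite-suppressing hormone α-MSH and of ACTH, gave 15700, 7380, 15900 and 9840 units. Both bezafibrate arrays were below both control arrays. The level at ZT10 was 2.21-fold lower with bezafibrate (log2 ratio -1.15 ± 0.20), and the log2 ratio at ZT22 was -0.51. Cartpt (NM_013732), which encodes the CART peptide, gave 16800, 13600, 17400 and 13500 units, with a log2 ratio of -0.36 ± 0.20 at ZT10. A further Cartpt probe gave -0.48, so both probes lay below 0 but short of 1.5-fold. Pomc is also the main transcript of pituitary corticotrophs, and pituitary transcripts differed between the same arrays, as described below; their part in the Pomc value was not tested.

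Of the 14 appetite-suppressing peptides listed, 12 were members, 8 of them below 0, with a median log2 ratio of -0.10. Pomc was the only one of these 12 past 1.5-fold. Cck, the cholecystokinin gene, had a ratio of -0.33, Nmu, the neuromedin U gene, -0.28, and Ucn3, the urocortin 3 gene, 0.21. Crh had no measured probe. Receptors and signalling genes of feeding control had smaller ratios: 20 of 26 were members, 12 of them below 0, none past 1.5-fold, with a median of -0.08. They ran from Socs3, an inhibitor of leptin signalling, at -0.28, to Npy2r, a neuropeptide Y receptor, at 0.26. Mc4r, the melanocortin receptor on which both peptide systems converge, was at 426, 395, 422 and 360 units with a ratio of -0.17 ± 0.20. The leptin receptor gene Lepr was above background on the control array alone (12.9 against 11.8 units) and was not a member.

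**Figure D2:**
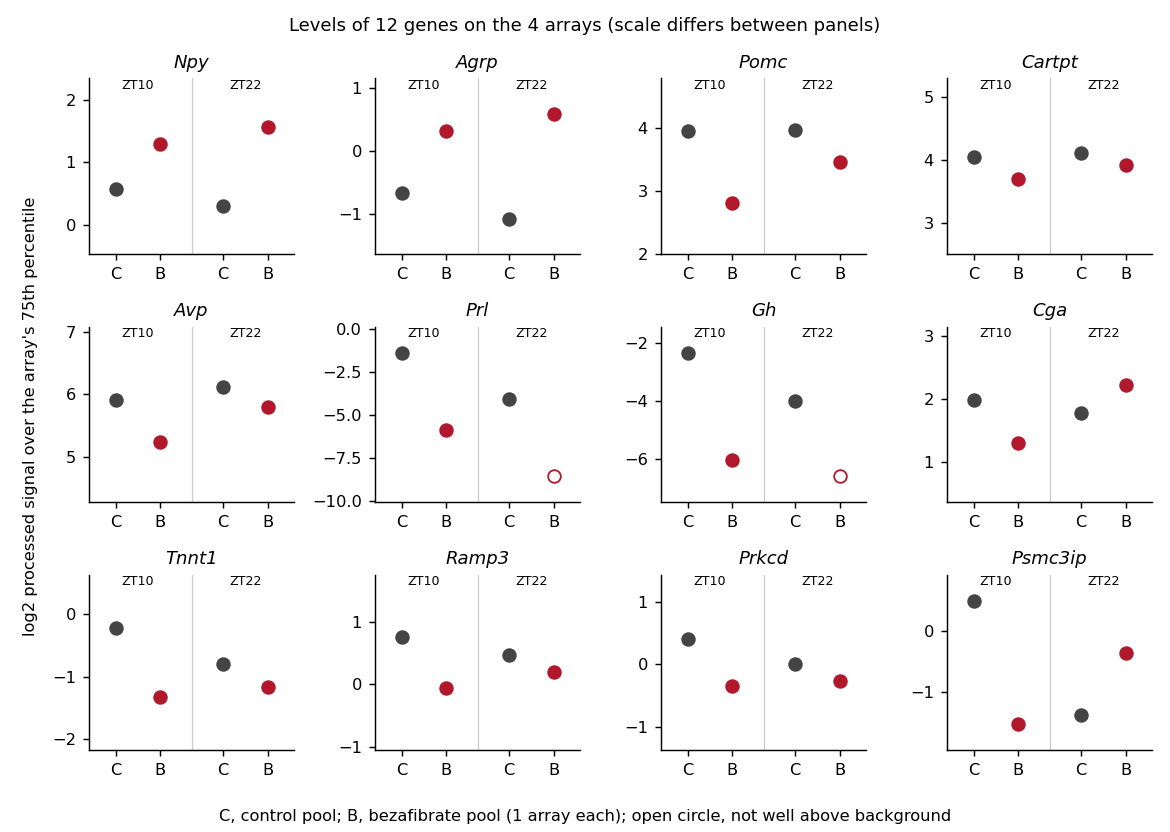
Log2 processed signal over the 75th percentile of the array (vertical axis, scale differs between panels) for 12 genes on the control (C, grey) and bezafibrate (B, red) arrays at ZT10 and ZT22, 1 point per array; open circles were not well above background. The red points of Npy and Agrp lie above the grey points at both times, those of Pomc, Avp and Tnnt1 below them, and Cga and Psmc3ip lie lower with bezafibrate at ZT10 and higher at ZT22.

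Neuroendocrine peptides lay lower on the bezafibrate array, with 12 of 15 members of the 20 listed below 0 and a median log2 ratio of -0.14. Avp (NM_009732), the vasopressin gene, was the only one of them past 1.5-fold, with 60700, 39600, 70400 and 49700 units. Both bezafibrate arrays lay below both controls for Avp, with a log2 ratio of -0.67 ± 0.20 at ZT10, or 1.59-fold lower, and -0.32 at ZT22. Oxt, the oxytocin gene of neighbouring magnocellular neurons, gave 56500, 52700, 71100 and 54800 units and a ratio of -0.16 ± 0.20. Kiss1, the kisspeptin gene, had a ratio of -0.43 and Pdyn, the dynorphin precursor, -0.30. Ghrh and Trh, which encode the hormones that release growth hormone and thyrotropin, had ratios of -0.14 and -0.16, and Sst, the somatostatin gene, had one of 0.06. Genes for transcription factors of hypothalamic nuclei had a median of 0.08, with 19 of 28 members above 0 and none past 1.5-fold. The highest of these were Lhx8 at 0.36 and Lhx6 at 0.31, and the lowest was Nr5a1, a marker of the ventromedial nucleus, at -0.29.

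The pituitary hormone genes Prl and Gh had the lowest and the third lowest ratio among the named genes, and other pituitary hormone genes lay closer to 0. Prl (NM_011164), the prolactin gene, gave 380, 17.7, 59.2 and 2.41 units, the last not well above background, and was 22.3-fold lower with bezafibrate at ZT10 (log2 ratio -4.48 ± 0.33). Gh (NM_008117), the growth hormone gene, gave 201, 15.9, 63.9 and 9.25 units, the last again not above background, and was 13.1-fold lower (-3.72 ± 0.33). For both genes the order of the arrays from high to low was control ZT10, control ZT22, bezafibrate ZT10 and bezafibrate ZT22. Cga, the common subunit of the pituitary glycoprotein hormones, gave 4010, 2570, 3480 and 4150 units, with a ratio of -0.70 ± 0.20 at ZT10 and 0.43 at ZT22. Tshb and Lhb, specific subunits of thyrotropin and luteinizing hormone, had ratios of -0.31 and -0.22 at ZT10, and of 1.35 and 0.26 at ZT22. Cga and Tshb are also made in the pars tuberalis, pituitary tissue attached to the base of the hypothalamus.

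Of 16 pituitary markers, Pomc among them, 10 were members, 7 of them below 0 and 4 at least 1.5-fold lower, with a median of -0.26. Prl and Gh reached the minimum signal on the control ZT10 array alone, so the size of this median depended on the filter. With the minimum required on both ZT10 arrays, 8 markers were left and their median was -0.13. Without a minimum, 13 markers entered and their median was -0.35. Dlk1 and Chgb, which hypothalamic neurons also make, were at 0.03 and -0.03. The summed level of the 10 was 132 times the 75th percentile on the control array and 119.5 on the bezafibrate array at ZT10, and 138 and 138.7 at ZT22. This sum included Pomc, at 15700 and 7380 units at ZT10, and Dlk1 and Chgb, so it did not measure pituitary tissue alone. Pou1f1, the factor that defines the cells making prolactin and growth hormone, and the receptor gene Gnrhr were not above background on any of the 4 arrays. Tbx19, the corticotroph factor, was above background on the control ZT10 array alone, at 14 units. In RNA of a tissue block, fewer cells of a type and less RNA per cell cannot be told apart.

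Markers of the thalamus, which borders the hypothalamus dorsally, were lower with bezafibrate at ZT10. Of 18 listed, 16 were members, 14 of them below 0 and 4 at least 1.5-fold lower, with a median log2 ratio of -0.28. Tnnt1, a slow troponin gene strong in thalamic neurons, gave 863, 419, 581 and 399 units and was 2.14-fold lower (-1.10 ± 0.20). Ramp3, a receptor activity modifier, gave 1700, 1010, 1390 and 1020 units (-0.81 ± 0.20), and Prkcd, a protein kinase C, gave 1330, 830, 1010 and 740 units (-0.74 ± 0.20). Both bezafibrate arrays were below both control arrays for each of these 3 genes. A further Prkcd probe gave -0.65. Synpo2, an actin-binding protein gene, had a ratio of -0.65 ± 0.20, and Slitrk6, a neuronal membrane protein gene, one of -0.57, just short of 1.5-fold.

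Tcf7l2, the transcription factor of thalamic and habenular neurons, lay at -0.36, with another probe at -0.20. Amotl1 and Zic1 were the 2 thalamic markers above 0, at 0.24 and 0.16. At ZT22 14 of the 16 were again below 0, with a median of -0.16. The summed level of the 16 was 33.4 times the 75th percentile on the control and 28.9 on the bezafibrate array at ZT10, and 32.8 and 30.05 at ZT22. The part of the thalamic share of the block in other ratios was not tested.

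Other neighbouring regions differed less at ZT10. Striatal markers, all 20 of which were members, had a median of -0.05, with 16 below 0 and none past 1.5-fold, beside a median of 0.37 at ZT22. Among 16 members of the cortical and hippocampal list, Neurod2, a transcription factor of cortical excitatory neurons, gave 541, 192, 256 and 205 units and was 2.93-fold lower (-1.55 ± 0.21). The control ZT10 array stood above the other 3 for this gene. The other 15 lay within 1.5-fold and the median of the 16 was -0.02, with a sign that turned under median scaling. Among genes of this list under the minimum, Slc17a7 gave 71.5, 27.6, 50.2 and 42.2 units. On the control and bezafibrate ZT10 arrays Tbr1 gave 86.3 and 85.7 units, Emx2 68.1 and 80.4, and Nptx1 74 and 75.9. Slc6a3, the dopamine transporter gene, gave 618, 1050, 661 and 617 units, with the bezafibrate ZT10 array above the other 3 (1.63-fold higher, 0.71 ± 0.20). Th, which encodes the rate-limiting enzyme of dopamine synthesis, lay at -0.14, and Slc5a7, the choline transporter gene, at 0.42.

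**Figure D3:**
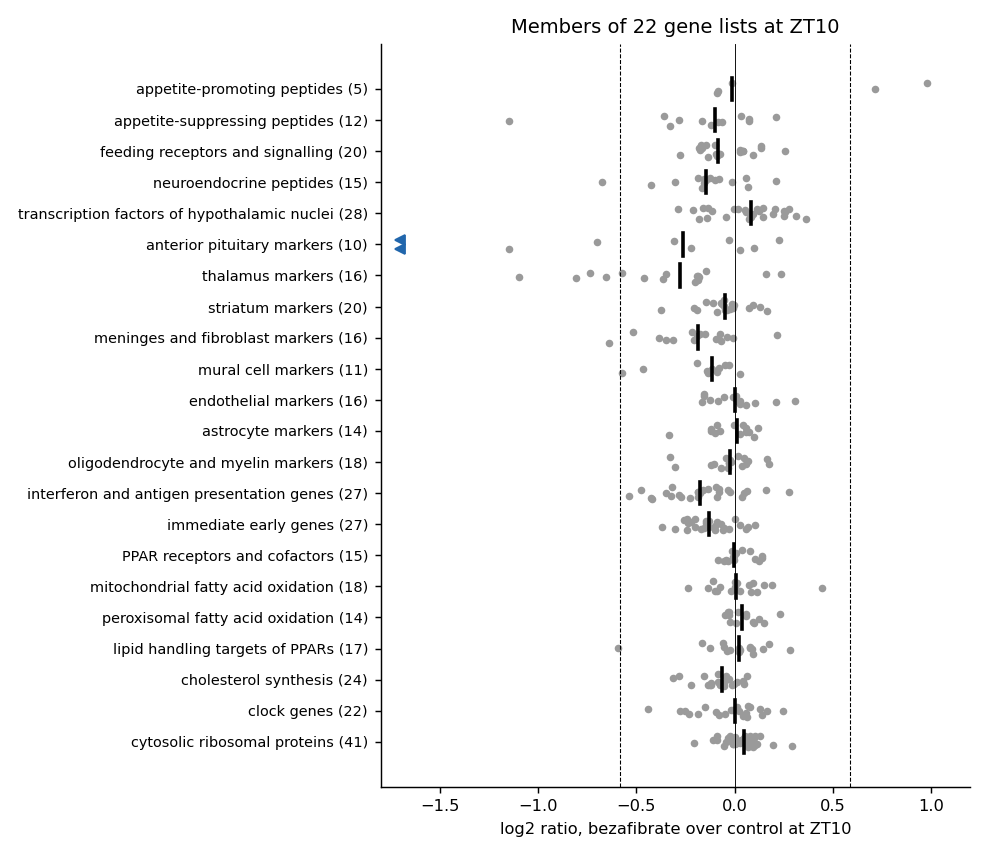
Log2 ratio of bezafibrate over control at ZT10 (horizontal axis) for the members of 22 gene lists, 1 grey point per gene, with the number of members in brackets, the list median as a black bar and dashed lines at 1.5-fold; blue arrows stand for Prl and Gh, which lie beyond the axis. The thalamus, pituitary, meninges and interferon lists have medians from -0.28 to -0.18, and the PPAR, fat oxidation and clock lists have medians within 0.04 of 0, whose sign depends on the scaling.

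Connective tissue and vessel wall transcripts were mostly lower. Of 18 markers of meninges and fibroblasts, 16 were members and 15 of these were below 0, with a median of -0.18. Col3a1, a fibrillar collagen gene, gave 316, 211, 331 and 288 units and was 1.56-fold lower (-0.64 ± 0.21), and Slc22a6, an organic anion transporter gene of the meninges, had a ratio of -0.52. Col6a1 was the 1 member above 0, at 0.22. At ZT22 7 of the 16 were above 0, with a median of -0.03. Of 11 mural cell members, 10 were below 0, with a median of -0.11. The lowest were the smooth muscle genes Cnn1 at -0.57 and Tagln at -0.47, and the smooth muscle actin gene Acta2 lay at 0.03.

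Markers of the glial and endothelial cells that fill the block had medians close to that of all members. The median was 0.00 for 16 endothelial, 0.01 for 14 astrocyte, -0.03 for 18 oligodendrocyte and -0.04 for 17 microglial members, and none of these passed 1.5-fold. The sign of the first 3 turned under at least 1 other scaling. Choroid plexus markers had 9 members with a median of -0.06, and Ttr, the transthyretin gene that is the most abundant transcript of that tissue, was at 58.8 and 62.7 units on the ZT10 arrays, under the minimum. On the bezafibrate ZT22 array Ttr was at 1320 units.

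Most of the listed interferon-induced and antigen presentation genes were also lower at ZT10. Of 33 listed, 27 were members and 22 of these were below 0, with a median of -0.18 and none past 1.5-fold. The lowest was Gbp2, an interferon-induced GTPase gene, with 424, 304, 351 and 267 units and a ratio of -0.54 ± 0.20. Iigp1, a GTPase gene of the same response, lay at -0.48, Bst2, the tetherin gene, at -0.42, and Psmb9, an immunoproteasome subunit gene, at -0.35. Above 0 lay, among others, the class I gene H2-D1 at 0.28. Genes of the same families outside the list, chosen after their values were seen, had ratios of either sign. Higher were Oas1e at 1.24, H2-DMb1 at 0.69 and H2-Bl at 1.35, with other H2-Bl probes at 0.22 and 0.75. The chemokine gene Cxcl10 gave 108, 209, 57.4 and 50.7 units (0.90 ± 0.21), and the interferon-induced GTPase gene Tgtp1 gave 141, 88.5, 160 and 110 units (-0.73 ± 0.21). At ZT22 11 of the 27 list members were above 0, with a median of -0.01.

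Immediate early genes, which respond within minutes to neuronal activity or handling, had 22 of 27 members below 0 and a median of -0.13, with none past 1.5-fold. Sik1, a kinase gene induced by cAMP, had the lowest ratio at -0.37, Fos lay at -0.20 and Egr3 was highest at 0.10. At ZT22 16 of the 27 were above 0, with a median of 0.07.

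Genes of the PPAR pathway differed little. Ppara (NM_011144), the receptor gene itself, gave 213.8, 223.5, 194 and 168.4 units with a ratio of 0.01 ± 0.21, and Pparg gave 196.5, 192.4, 218.6 and 182.9 units with a ratio of -0.09 ± 0.21. Ppard was not above background on either ZT10 array. None of the 15 receptors and cofactors, 18 mitochondrial and 14 peroxisomal fatty acid oxidation genes and 7 ketone body genes among the members passed 1.5-fold. Their medians were 0.00, 0.01, 0.04 and 0.01, and the sign of each turned under at least 1 other scaling. Cpt1a, the gate enzyme of mitochondrial oxidation in liver and a classic PPAR target there, had a ratio of 0.01. The largest ratio among these lists was that of Cpt1b, the muscle form of the gate enzyme, with 113, 160, 139 and 115 units and a ratio of 0.45 ± 0.21.

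Among 24 lipid handling targets of PPARs, 17 were members, with 10 above 0, 7 below and a median of 0.02, which turned to -0.04 under spike-in scaling. Fabp7 (NM_021272), the brain fatty acid binding protein of astrocytes and radial glia, was the 1 member of this list past 1.5-fold. It gave 11600, 7990, 12800 and 11700 units, with the bezafibrate ZT10 array below the other 3, and was 1.51-fold lower (-0.59 ± 0.20), within 1.5-fold under median scaling and under normexp background correction. Pdk4, a switch from glucose to fat use, lay at 0.08, Angptl4, an inhibitor of lipoprotein lipase, at -0.02 and G0s2, an inhibitor of fat breakdown, at 0.28. The 7 that did not pass the filter included Cyp4a14, an omega-hydroxylase strongly induced by fibrates in liver, with 52.5 units on the control array and 10.3 on the bezafibrate array, the latter not above background. Fgf21 and Fabp1 were not above background on any array. Slc2a4, the insulin-responsive glucose transporter gene, outside the lists and chosen after its value was seen, gave 544.4, 851.6, 656.3 and 620.3 units and a ratio of 0.59.

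Genes of cholesterol synthesis, all 24 of them members, had 20 below 0, a median of -0.06 and none past 1.5-fold. The lowest were Dhcr7, which makes the last step to cholesterol, at -0.31, with another probe at -0.77, and Mvd, a mevalonate pathway enzyme, at -0.28. At ZT22 19 of the 24 were below 0, also with a median of -0.06. Cytosolic ribosomal protein genes had 29 of 41 members above 0 and a median of 0.05, which turned to -0.02 under spike-in scaling. Chaperones of the endoplasmic reticulum had 16 of 23 above 0 and a median of 0.08, with Xbp1, a transcription factor of that response, at 0.25.

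Clock genes held 11 members above 0 and 11 below, with none past 1.5-fold and a median of 0.00 whose sign depended on the setting. Per1 and Per2, light-responsive repressors of the clock, lay at 0.13 and 0.14. Dbp, a clock output factor, gave 38600, 33100, 16100 and 19500 units with a ratio of -0.28 ± 0.20, and Nr1d1, which represses Arntl, gave 636, 563, 341 and 397 units with a ratio of -0.23 ± 0.20. For both, the ZT10 arrays lay above the ZT22 arrays and the bezafibrate arrays lay between the controls of both times. Bhlhe41, a repressor in the clock, had the lowest ratio at -0.44 and Cry1 the highest at 0.25. The difference in diet ratio between times was not tested.

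Of the genes past 1.5-fold, 14 higher and 17 lower had 1000 units or more on an array, and those outside the lists were chosen after their values were seen. Amz1, a metallopeptidase gene, gave 2070, 4460, 5120 and 4080 units (1.05 ± 0.20). Vapb, which tethers membranes to the endoplasmic reticulum, gave 18800, 33900, 35000 and 26900 units (0.79 ± 0.20), and Rab5c, an early endosome GTPase gene, gave 5290, 9320, 9290 and 7870 units (0.76 ± 0.20). For these 3 genes the control ZT10 array was the 1 that stood apart, below the other 3.

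Snrpd3, a core spliceosome gene, gave 5460, 9530, 8260 and 9360 units (0.75 ± 0.20), and Chmp4b, a membrane-scission gene of the ESCRT machinery, gave 23800, 38400, 39100 and 26100 units (0.63 ± 0.20). The order of arrays in Chmp4b set control ZT10 and bezafibrate ZT22 low against the other 2. The rest of the 14 were Npy, Agrp and Slc6a3, described above, and 6 genes at 0.60 to 0.87. These were Tmem14c, which encodes a mitochondrial membrane protein, Ptprg, a receptor tyrosine phosphatase gene, Cpsf4, which acts in mRNA 3′ end formation, Mtfr1, a regulator of mitochondrial fission, the MAGE family gene Mageh1 and Arl16, a small GTPase gene.

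Among the 17 lower genes, Psmc3ip (NM_008949), a cofactor of meiotic recombination, had the lowest ratio, with 1430, 362, 385 and 694 units (-2.04 ± 0.20, 4.11-fold lower). The control ZT10 array stood above the other 3. Deptor, an inhibitor of the mTOR kinase, gave 2490, 1420, 1890 and 2490 units (-0.87 ± 0.20), and Pop4, a subunit of RNase P, gave 2510, 1460, 1380 and 2100 units (-0.84 ± 0.20). Gabrd, the delta subunit of extrasynaptic GABA-A receptors, gave 1690, 1120, 967 and 1550 units (-0.65 ± 0.20); it was the 1 gene of 19 GABA members past 1.5-fold. Chil3, a chitinase-like gene of macrophages and other myeloid cells, gave 1080, 696, 75.7 and 58.3 units (-0.69 ± 0.20), with both ZT10 arrays far above both ZT22 arrays. The rest of the 17 were Pomc, Avp, Cga, Fabp7, Ramp3, Prkcd and Synpo2, described above, and Cap1, Rab42, Abhd1, Il17rd and the numbered locus LOC216974, at -0.77 to -0.59.

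The largest ratios in the higher direction came from dim genes. Here too the filter let in genes that reached the minimum signal on the bezafibrate ZT10 array alone, as Prim2, Rnase10, Firre and Lgr6 did. With the minimum required on both ZT10 arrays, 6 genes instead of 17 were at least 2-fold higher. Prim2, a primase subunit gene, gave 10.2, 192, 22.5 and 10.1 units (4.18 ± 0.31, 18.1-fold), and Rnase10, a ribonuclease family gene of the epididymis, gave 10.1, 101, 8.11 and 13.6 units (3.27 ± 0.35). In both, the bezafibrate ZT10 array stood far above the other 3. Firre, a nuclear long noncoding RNA of the X chromosome, gave 31.8, 258, 552 and 24.7 units (2.96 ± 0.22), low on 1 array of each diet. Lgr6, an R-spondin receptor gene, gave 30.5, 144, 31.6 and 57.1 units (2.18 ± 0.22), with both bezafibrate arrays above both controls. Aph1a, a subunit of gamma-secretase, gave 138, 459, 391 and 355 units (1.68 ± 0.20), and here the control ZT10 array was the low one. The rest of the 15 highest were Olfr868, Dna2, Tent5b, H2-Bl, Olfr149, Tescl, Oas1e, Amz1, Zar1 and Agrp, at 0.98 to 1.86. Olfr868, H2-Bl, Olfr149 and Oas1e belong to families of close copies, whose transcripts may share a probe.

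Several of the lowest ratios came from dim genes that were high on the control ZT10 array alone. The filter did not ask for the minimum signal on both ZT10 arrays, so such genes could enter through the array on which they were high. With the minimum required on both, 6 genes instead of 26 were at least 2-fold lower. Prss43, Creb3l1, Serpinf2, Aym1, Adamtsl5, Eps8l2, Wdr91, Cldn3, Krt2 and Ighg reached it on the control array alone. Prss43, a serine protease gene of testis, gave 290, 15.4, 34.4 and 10.8 units (-4.29 ± 0.33). Creb3l1, an endoplasmic reticulum stress transducer, gave 296, 42.8, 47.1 and 26.3 units (-2.85 ± 0.23), and Serpinf2, the alpha-2-antiplasmin gene of liver, gave 122, 20.4, 20 and 31.8 units (-2.64 ± 0.33). In each, the control ZT10 array lay far above the other 3. The same held for Aym1, Adamtsl5, Wdr91, Cldn3 and Krt2, all past 2-fold. Eps8l2, Prss22 and the immunoglobulin gene Ighg were at -2.46, -1.50 and -1.31 and, with Prl, Gh, Psmc3ip and Neurod2, complete the 15 lowest.

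Read across all 4 arrays, the genes past 1.5-fold fell into several patterns. Among the 60 higher genes, control ZT10 was the lowest of the 4 arrays in 41 and bezafibrate ZT10 the highest in 42, and both held in 29. In 20 of the 60, the bezafibrate array lay within 1.5-fold of both ZT22 arrays and the control array did not; in 15 the reverse held. Among the 71 lower genes, control ZT10 was the highest of the 4 in 55 and bezafibrate ZT10 the lowest in 50. In 25 of the 71 the bezafibrate array lay near both ZT22 arrays and the control array did not, and in 12 the reverse held. The ZT10 values of these genes chose them, so these counts are a description. Spots next to those of the genes past 1.5-fold on the array had a median ratio of 0.01 in either direction, the same as all members.

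Genes with several probes gave a check within the arrays. Of the 60 higher genes, 9 had another passing probe, and in 4 of them (Aph1a, Snrpd3, Chmp4b and St3gal3) all other probes were also at least 1.5-fold higher. Of the 71 lower genes, 8 had another passing probe, and in 3 (Psmc3ip, Prkcd and Abhd1) it was also at least 1.5-fold lower. Psmc3ip gave -2.04 and -1.97 by its probes, Aph1a 1.68 and 1.33, Snrpd3 0.75 and 0.76, Chmp4b 0.63 and 1.13, and Abhd1, a hydrolase family gene, -0.64 and -0.73. Other probes went against the brightest one for Mtm1, the myotubularin gene (-1.05 and 0.25), and Il17rd, a receptor family gene (-0.61 and 0.26). They lay near 0 for Vapb (0.06 and 0.24), Ptprg (0.11), Cpsf4 (0.14) and Mtfr1 (0.13). For Deptor (-0.21) and Rab42 (-0.28) the other probe was lower but short of 1.5-fold. Over all 4736 genes with more than 1 passing probe, all probes were at least 1.25-fold higher in 14 and lower in 10. Besides those named, the 14 included Glo1, the glyoxalase gene (0.42 and 0.75), the histone gene H4c4 (0.38 by the brightest probe), Tyms and Nlk, and the 10 included Cartpt, Pop4, Myo5b, Fgl2 and Cd99. Histone H4 genes are near-identical in coding sequence, so the H4c4 values may hold signal of other copies.

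**Figure D4:**
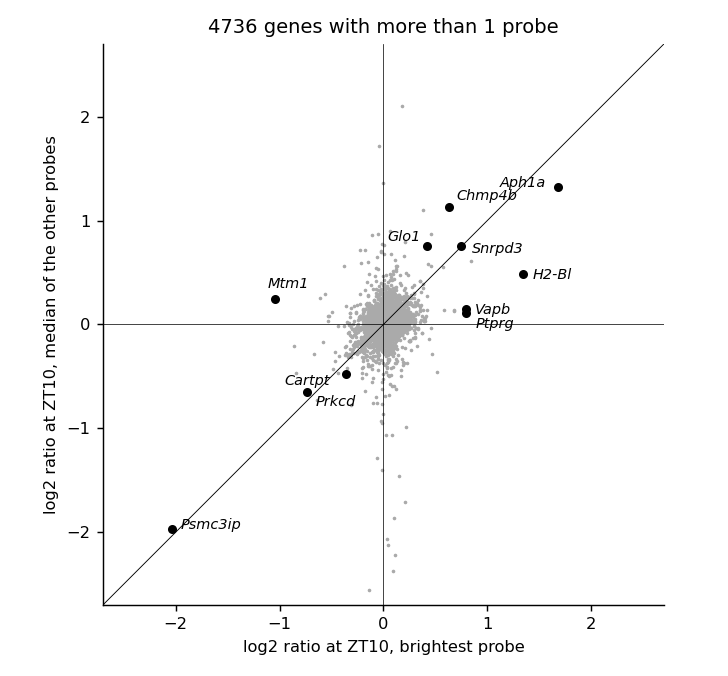
Log2 ratio at ZT10 from the brightest probe of a gene (horizontal axis) against the median log2 ratio of its other passing probes (vertical axis) for 4736 genes, with the line of equal values and named genes in black. Psmc3ip (-2.04 and -1.97) and Aph1a (1.68 and 1.33) lie near the line, and Mtm1, Vapb and Ptprg lie away from it.

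The ZT22 arrays came from other mice and share no array with the ZT10 comparison. Of the 60 genes higher at ZT10, 58 were above background on both ZT22 arrays, 31 of them with a ratio above 0 at ZT22, and 6 were at least 1.5-fold higher there: Npy, Agrp, Lgr6, Trim55, Depp1 and Amy2. Over the 13241 members above background at ZT22, 53.8% had a ratio above 0 there and 46.2% below 0, and 0.597% were 1.5-fold higher and 0.393% lower. Trim55, a muscle ring-finger gene, gave 507, 824, 498 and 719 units, and Depp1, a target of FOXO factors, gave 106, 172, 152 and 245 units, with ratios of 0.64 at ZT10 and 0.71 and 0.87 at ZT22. Amy2, a pancreatic amylase gene, gave 90.6, 146, 81.1 and 140 units. In these 6 genes both bezafibrate arrays lay above both control arrays.

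Of the 71 lower genes, 66 were above background on both ZT22 arrays, 42 of them with a ratio below 0, and 10 were at least 1.5-fold lower there. Among these 10, Cdkn3, a cell cycle phosphatase gene, gave 112, 62.2, 186 and 63.5 units, with ratios of -0.90 and -1.37, and Cthrc1, a secreted collagen repeat gene, gave 454, 252, 276 and 143 units (-0.91 and -0.77). The other 8 were Prss43, Creb3l1, Eps8l2, Akr1e1, Rnaset2, Rbm45 and the clones 1600029I14Rik and 4930412C18Rik. Opposite ratios of at least 1.5-fold at ZT22 were found for 3 of the higher genes, Firre, Fggy and Ptprg, and for 7 of the lower ones, Psmc3ip, Serpinf2, Clcn1, Mtm1, Pop4, Gabrd and Cd209b. The median ratio at ZT22 was 0.02 for the higher genes and -0.10 for the lower ones.

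**Figure D5:**
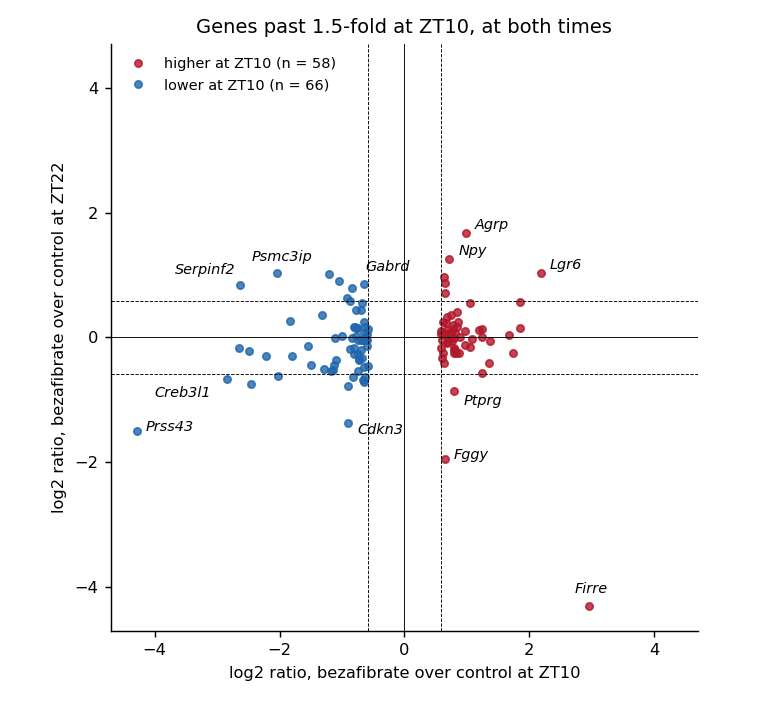
Log2 ratio of bezafibrate over control at ZT10 (horizontal axis) and at ZT22 (vertical axis) for the 58 genes higher (red) and 66 genes lower (blue) by 1.5-fold at ZT10 that were above background on all 4 arrays, 1 point per gene, with dashed lines at 1.5-fold. Agrp and Npy lie at the upper right, Firre at the lower right, and most points spread around 0 on the vertical axis.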

How the data were processed

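Pools of hypothalamic RNA were hybridized to 4 one-colour (Cy3) arrays, 1 per diet and time, from 400 ng of total RNA. Per the file headers, the authors extracted spots with Feature Extraction 9.5.1.1 (protocol GE1-v5_95_Feb07); the deposited processed signal is a background-subtracted, spatially detrended intensity with 3 significant digits, not normalized between arrays, which limits the precision of low values. Other 0 or 1 marks per spot in the deposited files tell background, saturation and outlier spots. A deposited table for the series is, per the labels, a ratio of bezafibrate over control; its columns correlated at 0.996 (ZT10) and 0.995 (ZT22) with the ratio of the array files taken that way, which settled which file was which pool. It served as an alternative.

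From these, log2 processed signal minus the array's 75th percentile over non-control spots was computed, without outlier spots (73 to 142 per array), and spots of a probe were averaged. A gene was represented by its brightest probe over the 4 arrays. Names came from RefSeq (assembly GRCm38.p6) by accession (22951 of 41174 probes), symbol (5850) or older symbol (3944); 2225 kept the file's name and 6204 had none. Called means past 1.5-fold; no test was possible. Genes were named by rule: the 15 highest and lowest ratios without clones, list members past 1.5-fold, and fixed genes; all others, list members short of 1.5-fold among them, were chosen after their values were seen. Members and the 42 lists were chosen with earlier results of these data known. The counting was tested on simulated data. Alternatives covered scaling, background correction (limma 3.58.1), the deposited ratio, the choice of probe, the minimum signal and outlier spots. Python 3.11.15, numpy 2.4.6, pandas 2.3.3 and matplotlib 3.10.9 were used. A few fixed genes are not reported here.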

Additional observations from a re-analysis of the deposited data

Results flagged for a closer look

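In 10 genes past 1.5-fold at ZT10, the ratio at ZT22 was past 1.5-fold in the opposite direction, and with 1 pool per group the difference between times was not tested in any of them. Of those higher at ZT10, Firre had a log2 ratio of 2.96 at ZT10 and -4.30 at ZT22, Ptprg had 0.80 and -0.86, and Fggy had 0.65 and -1.95. Of those lower at ZT10, Serpinf2 had -2.64 and 0.85, Psmc3ip had -2.04 and 1.03, and Clcn1 had -1.21 and 1.01. Mtm1 had -1.05 and 0.90, Cd209b had -0.91 and 0.63, Pop4 had -0.84 and 0.78, and Gabrd had -0.65 and 0.86.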

How the results depend on the processing

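Counts past 1.5-fold (60 higher and 71 lower) stayed within 1.5 times under quantile, median and spike-in scaling, the deposited ratio, both other choices of probe and with outlier spots kept. Normexp background correction gave 37 higher, and 9 higher and 17 lower at 2-fold (17 and 26 before). A minimum of 50 units gave 97 higher and 137 lower, and 34 and 45 at 2-fold; a minimum of 200 gave 38 and 46, and 7 and 15. A minimum of 100 on both arrays gave 39 and 43, and 6 and 6, and no minimum gave 171 and 223, and 51 and 57. These minimums change by construction how many dim genes enter. The normexp correction added an offset of 50 units, which by construction shrinks the ratios of dim genes. How much of the change came from this offset was not tested. Of 42 named genes past 1.5-fold, 38 stayed past it under all 12 alternatives that gave a value, and 0 of 65 named genes changed sign. The exceptions were Fabp7 under median scaling and Fabp7, Olfr149, Synpo2 and Col3a1 under normexp. The medians of the thalamus, pituitary, meninges, mural, interferon, immediate early, neuroendocrine peptide and cholesterol lists were below 0 under every setting. So were those of other lists, among them the striatum (-0.05) and microglia (-0.04) lists. No paired analysis was possible because each group was 1 pool and the labels carry no replicate numbers. Leaving out a replicate was not possible either.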
